A study of Mus musculus with 2 samples.

Results

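The genes described here are 49 genes of the cell division cycle, of the 32285 genes in the deposited matrices. They were taken from a list ordered by phase, in which 17 genes belong to DNA replication (the S-phase list), 22 to mitosis (the mitotic list), 4 are E2F transcription factors and 4 are inhibitors. *Stmn1* and *Hmgb2*, the 2 remaining genes, are highly transcribed in dividing cells without belonging to 1 phase (the general list). All 49 were found in both matrices, so none was left out.

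The study asked what follows when TET enzymes, which oxidise methylated cytosine in DNA, are lost in regulatory T (Treg) cells. The data came from single-cell RNA sequencing of cells with the αβ T cell receptor at their surface, taken at 14 weeks of age from spleen pooled with cervical and inguinal lymph nodes. The WT mouse was *Foxp3Cre* WT and the DKO-severe mouse was *Foxp3-Cre Tet2/3* fl/fl, so both carried Cre, which is driven by *Foxp3* and therefore acts in Treg cells and their descendants. Per the labels there was 1 mouse of each genotype. A cell's genotype was that of its deposited matrix, and cells with more counts of the other genotype's antibody hashtag were left out.

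A cell that divides copies its DNA in S phase and parts the copies in mitosis. Cyclins bound to cyclin-dependent kinases drive both steps, E2F factors switch on the genes of replication, and a later wave of transcription brings up the genes of the mitotic spindle, the kinetochore and chromosome condensation. Inhibitors such as p21 and the INK4 proteins bind cyclin-dependent kinases and hold them back. Naive T cells rest outside the cycle and enter it after contact with antigen.

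Counts of unique molecular identifiers (UMIs, distinct captured RNA molecules) came from 6584 WT and 6359 DKO-severe cells, with a median of 5606 and 8077 UMIs per cell. Cd4 Foxp3-negative cells (1671 WT, 2408 DKO-severe) had a UMI of *Cd3d*, *Cd3e* or *Cd3g* and of *Cd4*, and none of *Cd8a*, *Cd8b1* or *Foxp3*. Foxp3-positive cells (63 and 334) differed from these by a *Foxp3* UMI, and Cd8 cells (3064 and 1724) had *Cd8a* or *Cd8b1* in place of *Cd4*. Innate-like cells (105 and 243) had a *Cd3* UMI and 1 of *Zbtb16*, the factor of innate-like T cells, and B cells (67 and 463) had UMIs of 2 or more of 6 B lineage genes. The innate-like and B gates overlapped with the others, and 77.6% of the WT and 52.9% of the DKO-severe cells in the B gate also had a *Cd3* UMI. Levels are CPM, the UMIs of a gene summed over a gate's cells per 1000000 UMIs of those cells. Differences are log2 ratios of DKO-severe over WT CPM with exact 95% intervals. These intervals, like the binomial intervals of shares, cover counting error only. With a single mouse on each side nothing is known of how mice vary, cells do not stand in for mice, and the genotypes were compared by values without any test.

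The sequence before the start site was searched for letters known from replication and mitosis genes, and it is shown for 4 genes on which the results turn. The 250 bases upstream of each RefSeq start (GRCm38.p6) were searched on both strands for the E2F motifs TTTCCCGC, TTTCGCGC, TTTGCCGC and TTTGGCGC, for CHR motifs (cell cycle homology region, TTTGAA or TTTAAA) and for CCAAT. E2F motifs bind E2F factors, CHR motifs are known from mitosis genes and CCAAT binds the factor NF-Y. Capitals mark the matches. *Mcm6*, a subunit of the replicative helicase (chr1:128359706-128359955, minus strand), *Top2a*, which untangles sister chromosomes (chr11:99024190-99024439, minus strand), *Cdkn3*, an inhibitor (chr14:46760291-46760540, plus strand), and *Cdkn1a*, the gene of p21 (chr17:29090729-29090978, plus strand, the first of its windows), read 5′ to 3′ as follows.
Mcm6: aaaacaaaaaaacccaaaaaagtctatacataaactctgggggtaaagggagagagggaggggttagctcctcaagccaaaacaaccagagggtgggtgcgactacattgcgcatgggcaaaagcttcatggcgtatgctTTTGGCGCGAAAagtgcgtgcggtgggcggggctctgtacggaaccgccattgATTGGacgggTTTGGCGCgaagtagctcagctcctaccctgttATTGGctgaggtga
Top2a: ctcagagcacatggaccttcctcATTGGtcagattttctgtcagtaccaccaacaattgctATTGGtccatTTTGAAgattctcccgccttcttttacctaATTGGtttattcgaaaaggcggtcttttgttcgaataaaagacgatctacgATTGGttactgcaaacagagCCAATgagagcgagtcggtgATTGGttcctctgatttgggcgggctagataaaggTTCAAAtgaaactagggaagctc
Cdkn3: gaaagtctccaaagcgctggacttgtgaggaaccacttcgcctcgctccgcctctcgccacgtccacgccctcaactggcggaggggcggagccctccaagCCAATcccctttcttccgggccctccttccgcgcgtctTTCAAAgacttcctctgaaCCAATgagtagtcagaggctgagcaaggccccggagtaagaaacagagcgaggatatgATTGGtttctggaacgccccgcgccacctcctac
Cdkn1a: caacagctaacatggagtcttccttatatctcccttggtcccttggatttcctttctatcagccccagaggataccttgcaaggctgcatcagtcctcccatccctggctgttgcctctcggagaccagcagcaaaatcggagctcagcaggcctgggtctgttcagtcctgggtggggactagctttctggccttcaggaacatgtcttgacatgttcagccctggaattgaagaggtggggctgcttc
The *Mcm6* window held 3 E2F and 2 CCAAT matches, of which 1 E2F pair overlaps. The *Top2a* window held 2 CHR and 6 CCAAT matches, and that of *Cdkn3* held 1 CHR and 3 CCAAT matches. Neither window of *Cdkn1a* held any of these letters.

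A window was found for 42 of the 49 members. An E2F motif stood in 28.6% of the 14 S-phase genes with a window, in 5.26% of the 19 mitotic genes, and in 2.16% of all 27025 genes with a window. A CHR motif together with CCAAT stood in 21.4% of the S-phase genes, in 57.9% of the mitotic genes and in 11.2% of all genes. More than 1 CCAAT was found in 63.2% of the mitotic genes against 11.5% of all genes. The mitotic list was thus richer in CHR and CCAAT letters and the S-phase list in E2F letters. A match is a run of letters, not evidence that a factor binds there. *Kif23*, a kinesin needed for the last step of division, had 1 CCAAT and no other match, and *Cdkn2c* had none in either of its windows.

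In Cd4 Foxp3-negative cells every member had a higher level in the DKO-severe than in the WT mouse, and mitotic genes differed more than S-phase genes. Of the 33 members with a mean of 10 CPM or more, 28 (84.8%) had a log2 ratio of 1 or more, as did 9.27% of the 8302 genes at that level. The median over the 49 members was 1.95, while that of the 8302 genes was 0.10. The interval lay above 0 for each of the 49, as it did for 34.4% of the 17078 genes with a ratio in this gate. The 22 mitotic genes summed to 225 CPM in WT against 866 CPM in DKO-severe cells, a log2 ratio of 1.95 (interval 1.88 to 2.01). The 17 S-phase genes summed to 302 and 637 CPM, a log2 ratio of 1.08 (1.02 to 1.14). A summed level cannot tell more dividing cells from more RNA per dividing cell, a point taken up below with shares of cells.

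**Figure D1:**
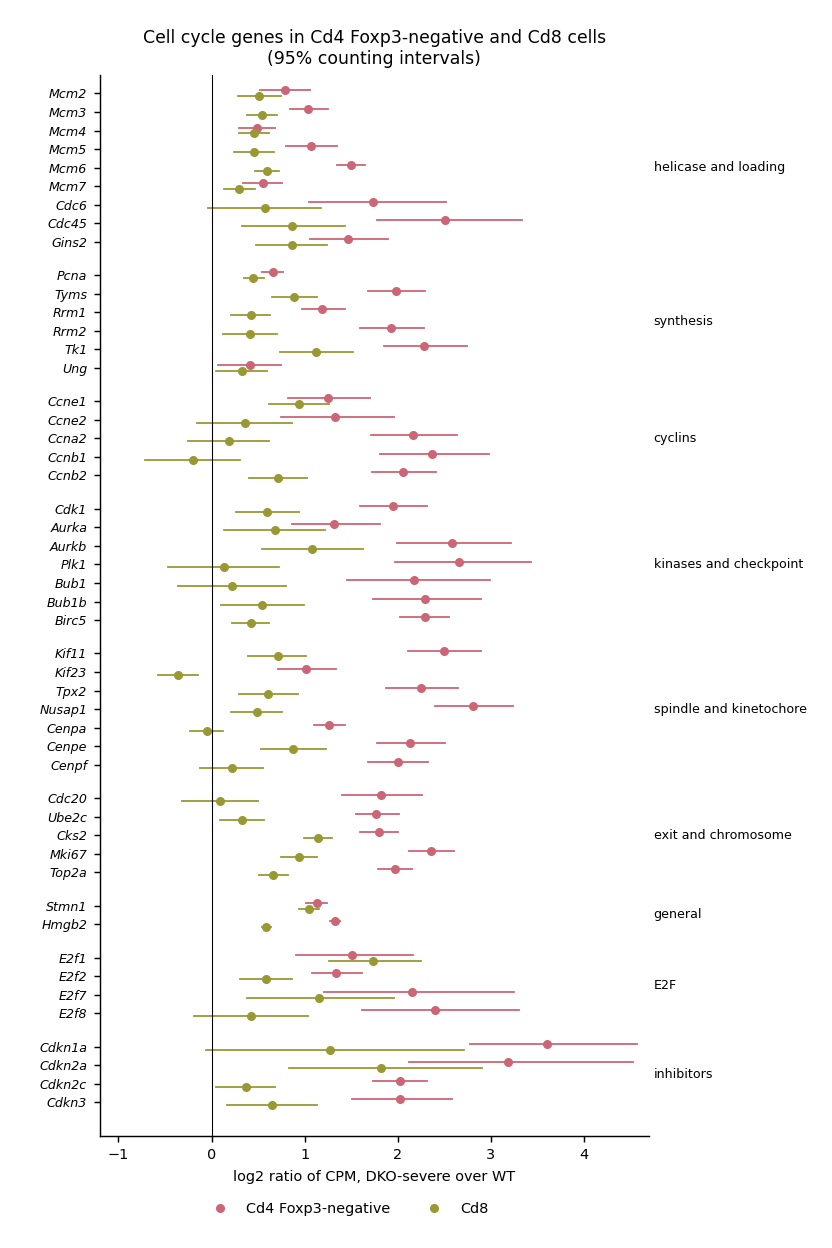
Log2 ratio of CPM, DKO-severe over WT, on the x axis for each of the 49 members, grouped by role, in Cd4 Foxp3-negative cells (red) and Cd8 cells (olive). Bars are exact 95% counting intervals; all red intervals lie right of 0, while Cd8 values lie nearer to 0 and that of *Kif23* lies left of it at -0.36.

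Among cyclins and kinases of mitosis, *Ccnb1* (cyclin B1, the partner of CDK1) had 2.88 CPM in WT against 14.8 CPM in DKO-severe Cd4 Foxp3-negative cells, a log2 ratio of 2.37 (1.81 to 2.98). *Ccnb2*, its paralog, had 8.11 and 33.7 CPM (2.06). *Ccna2*, the cyclin that serves both S phase and mitosis, had 4.52 and 20.2 CPM (2.16), and *Cdk1* had 7.19 and 27.7 CPM (1.95). The widest ratio among kinases belonged to *Plk1*, which drives spindle assembly, at 1.85 and 11.7 CPM (2.66, 1.97 to 3.43), and the narrowest to *Aurka*, the centrosome kinase, at 4.62 and 11.6 CPM (1.32, 0.86 to 1.81). *Birc5* (survivin, of the chromosomal passenger complex) had the most UMIs of this group, with 14.0 CPM in WT against 68.1 CPM in DKO-severe cells (2.29).

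The spindle and kinetochore genes spanned the whole range of the mitotic list. *Nusap1*, which bundles spindle microtubules, had 5.34 CPM in WT against 37.4 CPM in DKO-severe cells, at 2.81 (2.40 to 3.24) the widest ratio of the list. *Kif23* had the narrowest, with 10.6 and 21.4 CPM (1.01, 0.71 to 1.34). Between these stood *Cenpf* of the kinetochore (9.04 and 36.0 CPM, 2.00) and *Cenpa*, the histone of centromeres (37.2 and 89.1 CPM, 1.26). *Cenpa* and *Kif23* were therefore the members of the group with the smallest differences.

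Genes of chromosome structure and of exit from mitosis differed by similar amounts. *Top2a* had 28.4 CPM in WT against 111 CPM in DKO-severe cells (1.97), and *Mki67*, the gene of the Ki-67 protein that coats mitotic chromosomes, had 16.5 and 84.7 CPM (2.36, 2.12 to 2.60). *Cks2*, a small subunit of cyclin-dependent kinases, had 24.4 and 84.9 CPM (1.80), and *Ube2c*, which passes ubiquitin to cyclins at mitotic exit, had 18.0 and 61.5 CPM (1.77). All 16 mitotic genes with a mean of 10 CPM or more had a log2 ratio of 1 or more.

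Among S-phase genes, 8 of 13 at that level did. The helicase subunits *Mcm6* and *Mcm4* marked how far members of 1 complex differed. *Mcm6* had 43.1 CPM in WT against 122 CPM in DKO-severe cells (1.50, 1.35 to 1.65), *Mcm3* had 24.2 and 49.9 CPM (1.04), and *Mcm4* had 31.7 and 44.5 CPM (0.49, 0.30 to 0.68). *Cdc45*, which joins the helicase when it is switched on, had the widest ratio of the list at 1.64 and 9.38 CPM (2.51, 1.78 to 3.34). In the synthesis group, the thymidine kinase *Tk1* had 4.83 and 23.5 CPM (2.28), *Rrm1*, the large subunit of ribonucleotide reductase, 19.3 and 44.2 CPM (1.19), and *Pcna*, the sliding clamp, 78.7 and 124 CPM (0.66). *Ung*, which removes uracil from DNA, had the narrowest ratio of all 49 members, with 9.86 and 13.1 CPM (0.41, 0.07 to 0.75). Cyclin E1 (*Ccne1*), the partner of CDK2 at entry into S phase, had 5.44 and 12.9 CPM (1.25).

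The Cd8 cells of the same mice differed less. Their S-phase list had 302 CPM in WT against 434 CPM in DKO-severe cells (0.52, 0.47 to 0.57), and their mitotic list 239 and 340 CPM (0.51, 0.46 to 0.57). Of the 22 members at 10 CPM or more, 2 (9.09%) had a log2 ratio of 1 or more, against 1.98% of 7817 genes. These were *Cks2* (25.7 and 56.7 CPM, 1.14) and *Stmn1* (56.3 and 116 CPM, 1.05). *Mki67* had 18.1 and 34.6 CPM (0.94), *Top2a* 29.3 and 46.4 CPM (0.66) and *Mcm6* 43.9 and 66.5 CPM (0.60). Of the mitotic genes, 14 had an interval above 0 and 1, *Kif23*, an interval below 0 (23.6 and 18.5 CPM, -0.36, -0.57 to -0.15). Of the 16192 genes with a ratio in Cd8 cells, 18.6% had an interval above 0 and 19.9% one below. The Cd8 mitotic ratio was 0.23 when the 12% of barcodes with the highest doublet scores were left out in place of 6%.

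In Foxp3-positive cells the WT values rested on 63 cells, of which 1 held 87.5% of the 409 mitotic UMIs. The mitotic list had 910 CPM in WT against 1615 CPM in DKO-severe cells (0.83, 0.68 to 0.97), and the ratio was 3.62 without the cell with most mitotic UMIs in each genotype. With cells that carried 2 or more markers of another lineage left out, it was 0.38. The S-phase list had 463 and 799 CPM (0.79, 0.59 to 0.99), 1.49 without the top cell of each genotype and 0.53 without cells carrying other markers. The WT level of this gate was thus set by single cells. Of the members at 10 CPM or more, 18 of 41 (43.9%) had a log2 ratio of 1 or more, against 10.2% of 8455 genes. The DKO-severe levels, drawn from 334 cells, were the highest S-phase and mitotic levels of the 5 gates. These 334 cells held a median of 11607.5 UMIs, against 7979.5 in DKO-severe Cd4 Foxp3-negative cells. The rank thus belongs to gates set at unequal depth, and shares of cells at equal depth are given below.

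Innate-like cells had 157 CPM of mitotic genes in WT and 1027 CPM in DKO-severe cells (2.71, 2.45 to 2.98), and 362 and 714 CPM of S-phase genes (0.98, 0.80 to 1.16). Of 37 members at 10 CPM or more, 31 (83.8%) had a log2 ratio of 1 or more, against 7.29% of 8609 genes. *Mki67* had 13.6 and 142 CPM there (3.38). Without cells carrying 2 or more markers of other lineages the ratios were 1.76 (mitotic) and 0.41 (S phase), and 1 WT cell held 39.4% of the mitotic UMIs. Cells of the B gate had 332 and 1435 CPM of mitotic genes (2.11, 1.93 to 2.30) and 327 and 702 CPM of S-phase genes (1.10, 0.92 to 1.29), the latter 0.61 when each cell was weighted equally. There, 30 of 39 members (76.9%) had a log2 ratio of 1 or more, against 8.64% of 8308 genes. *Top2a* had 18.1 and 169 CPM in the B gate (3.22), and *Mki67* had 72.6 and 147 CPM (1.02).

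**Figure D2:**
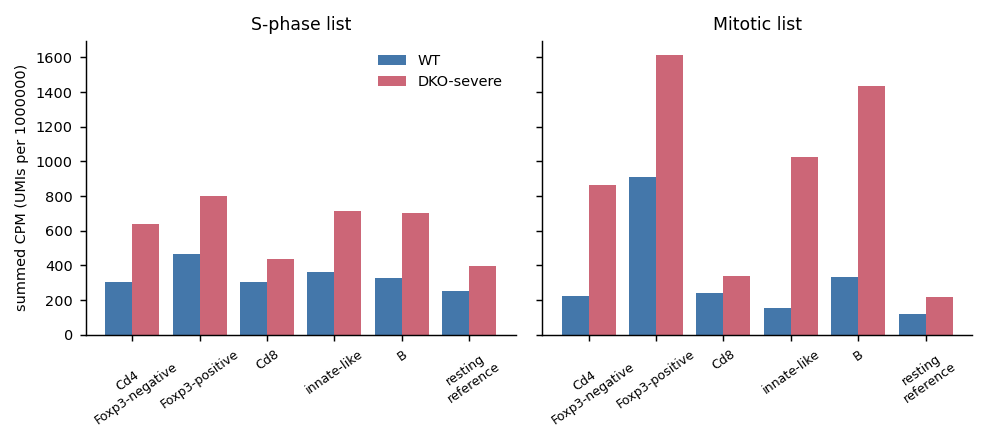
Summed CPM (UMIs per 1000000, y axis from 0) of the S-phase list (left) and the mitotic list (right) in 5 gates and in resting reference cells, with WT in blue and DKO-severe in red; there is 1 mouse per bar and so no error bar. The red bar is higher in every gate, and in WT Foxp3-positive cells 1 cell accounts for 87.5% of the mitotic UMIs.

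The balance between the lists was taken as the mitotic share of their joint UMIs, which does not depend on scaling to CPM. In Cd4 Foxp3-negative cells it was 42.7% (41.3 to 44.1) in WT and 57.6% (57.1 to 58.1) in DKO-severe cells. In Cd8 cells it was 44.1% and 44.0% (35.7% and 38.9% with each cell weighted equally). By summed UMIs the 2 lists thus stood there in the same proportion in both mice. It was 30.2% and 59.0% in innate-like cells and 50.4% and 67.2% in the B gate, and 66.3% and 66.9% in Foxp3-positive cells, where the WT value again rests on 1 cell. Mitotic UMIs were held by fewer cells than S-phase UMIs: in DKO-severe Cd4 Foxp3-negative cells the 10% of cells with most UMIs of a list held 86.6% of its mitotic and 64.0% of its S-phase UMIs, and in WT 70.9% and 45.1%.

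Shares of cells were compared after each cell had been thinned at random to 3800 UMIs, because DKO-severe cells held more UMIs. Cells with fewer were left out (696 WT, 477 DKO-severe). Resting reference cells, which were Cd4 Foxp3-negative or Cd8 cells with UMIs of *Ccr7* and of *Lef1* and none of *Cd44*, give the level in cells with transcripts of the naive state. Before thinning, 1564 of 2371 in WT and 399 of 632 in DKO-severe were Cd8 cells, so the gates overlap. On the counts before thinning, the S-phase list of resting cells had 252 and 394 CPM (0.64, 0.57 to 0.72). Their mitotic list had 120 and 219 CPM (0.86, 0.76 to 0.97). Both log2 ratios were wider than those of all Cd8 cells (0.52 and 0.51). For the shares that follow, gates were applied to the thinned counts. A cell that lost its *Foxp3* UMI on thinning but kept *Cd4* then counted as Cd4 Foxp3-negative. The Foxp3-positive gate held 28 WT and 78 DKO-severe cells on these counts, against 63 and 334 among all retained cells before thinning. In Cd4 Foxp3-negative cells 5.72% of WT (70 of 1224, 4.48 to 7.17) and 14.7% of DKO-severe cells (267 of 1819, 13.1 to 16.4) had UMIs of 2 or more mitotic genes. In Cd8 cells these were 5.64% (165 of 2928) and 11.3% (175 of 1553). In resting reference cells they were 5.15% (86 of 1669) and 9.71% (37 of 381, 6.93 to 13.1), with median UMIs before thinning of 5837 and 8970. The Cd8 share thus stood close to that of resting cells of the same mouse in both genotypes. For 2 or more S-phase genes the shares were 20.9% and 31.1% in Cd4 Foxp3-negative, 21.2% and 28.5% in Cd8 and 21.0% and 26.5% in resting reference cells.

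A few genes made up much of this low level. Among cells with exactly 1 mitotic gene, that gene was *Cenpa* in 25.1% of WT and in 21.6% of DKO-severe cells, and *Cks2* in 14.7% and 27.7%. *Kif23* was that gene in 15.3% of the WT cells. For *Cks2* the share of DKO-severe Cd4 Foxp3-negative cells with a UMI (13.9%) lay within the interval of that in resting reference cells (12.1%, 8.98 to 15.8), and the WT shares were 5.23% and 4.55%. *Mki67* was present in 2.21% of WT and in 7.48% of DKO-severe Cd4 Foxp3-negative cells, and in 1.80% and 3.94% of resting reference cells. For *Mcm6*, 11.2% (9.48 to 13.1) of WT and 28.5% (26.5 to 30.7) of DKO-severe Cd4 Foxp3-negative cells had a UMI, against 11.1% and 15.2% (11.8 to 19.2) of resting cells. *Pcna* shares were 23.9% and 26.1% against 20.8% and 31.5%. In DKO-severe, *Mcm6* was therefore detected in a larger share of Cd4 Foxp3-negative than of resting cells beyond the counting intervals, while the *Pcna* share was the lower. In all DKO-severe Cd8 cells the shares were 18.5% (16.6 to 20.6) for *Mcm6* and 29.4% for *Pcna*. Resting cells were mostly Cd8 cells before thinning, so lineage and resting state cannot be told apart in this comparison.

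A higher threshold, 6 or more of the 22 mitotic genes in a cell thinned to 3800 UMIs, was set after the data were seen. It set apart cells in which many mitotic genes were found together. There were 39 such cells among 5888 in WT (0.662%, 0.471 to 0.904) and 314 among 5882 in DKO-severe (5.34%, 4.78 to 5.94). Near the threshold, 1 WT and 44 DKO-severe cells had exactly 5 genes and 4 and 39 had exactly 6, while 25 and 184 cells had 10 or more. The highest number was 18 genes in WT and 21 in DKO-severe. Before thinning these cells held a median of 20140 UMIs in WT and 20011 in DKO-severe, against 5819 and 8271.5 in the other cells. Removal of doublets had taken none of the WT cells of this class and 30 of 344 (8.72%) of the DKO-severe ones. What doublets add to the class was not tested.

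**Figure D3:**
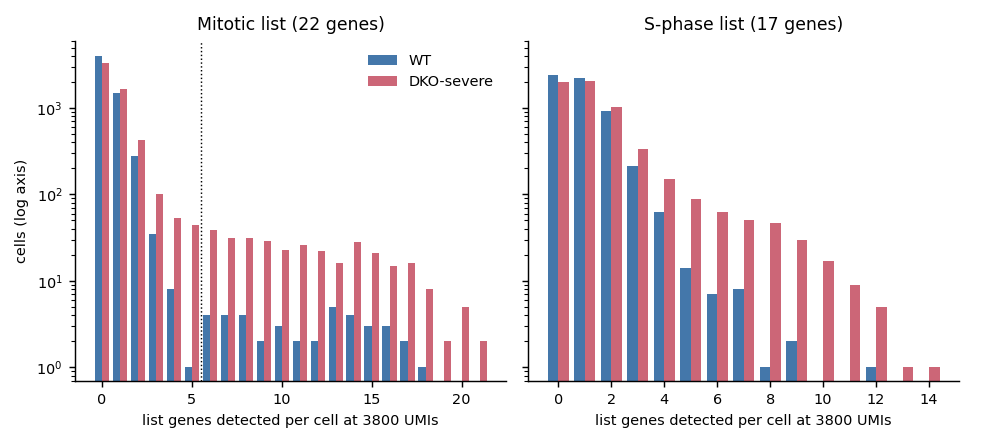
Number of cells (y axis, log scale) by the number of mitotic genes (left, of 22) and S-phase genes (right, of 17) found per cell at 3800 UMIs, for WT (blue, 5888 cells) and DKO-severe (red, 5882 cells). The dotted line marks the threshold of 6 mitotic genes; to its right lie 39 WT and 314 DKO-severe cells, with up to 18 and 21 genes.

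By gate, now set on the counts before thinning, the class held 0.613% of WT (9 of 1469) and 4.89% of DKO-severe (113 of 2312, 4.04 to 5.85) Cd4 Foxp3-negative cells. In Cd8 cells it held 0.576% (17 of 2949, 0.336 to 0.921) and 1.79% (29 of 1616, 1.21 to 2.57), and in resting reference cells 0.133% (3 of 2256) and 0.797% (5 of 627). The Cd4 Foxp3-negative and Cd8 shares were thus alike in WT, and in DKO-severe the Cd4 share was the larger. Foxp3-positive cells had a share of 11.9% (39 of 327, 8.62 to 15.9) in DKO-severe beside 1 of 54 in WT. In the B gate the counts were 2 of 59 and 35 of 379 (9.23%), and in innate-like cells 1 of 98 and 17 of 241 (7.05%). Because cells of the class held more UMIs than others, the gates were also set on the thinned counts. In DKO-severe the share was then 3.85% (3 of 78, 0.800 to 10.8) in Foxp3-positive, 3.52% (5 of 142) in innate-like, 8.14% (24 of 295, 5.28 to 11.9) in B, 3.74% (68 of 1819, 2.91 to 4.72) in Cd4 Foxp3-negative and 2.19% (34 of 1553, 1.52 to 3.05) in Cd8 cells. The order of the gates therefore changed with the depth at which they were set. At equal depth the wide interval of the Foxp3-positive share, which rests on 3 cells of the class, included the shares of the other gates. On thinned counts 181 of the 314 DKO-severe cells of the class were in none of the 5 gates, against 104 before thinning.

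Markers of other lineages moved with this class. Of the 314 DKO-severe cells, 105 had UMIs of 2 or more markers of B, plasma, monocyte or macrophage, granulocyte or erythroid cells (granulocyte markers in 39, monocyte or macrophage markers in 64), and of the 39 WT cells 4 did. The 5 granulocyte markers summed to 33196 CPM in the DKO-severe class and 6116 CPM in other DKO-severe cells, and to 54.0 and 81.9 CPM in WT, where *Ngp*, *Ltf* and *Camp* were at 0 in the class. The granulocyte level was therefore higher in DKO-severe than in WT cells, and in DKO-severe higher in the class than outside it. More DKO-severe cells with 2 or more granulocyte markers lay outside the class (248) than in it (39). Monocyte or macrophage markers summed to 1598 and 494 CPM in DKO-severe. Erythroid markers summed to 4676 and 208 CPM in WT and to 5329 and 305 CPM in DKO-severe. These were higher in the class than outside it in both mice. In DKO-severe, B lineage markers (411 and 456 CPM), plasma cell markers (101 and 200 CPM) and natural killer markers (253 and 185 CPM) differed less between the class and other cells. The 5 T cell markers summed to 3966 CPM in the DKO-severe class and 5150 CPM in the other cells, and no *Cd3* UMI was found in 36 of the 314. The median cell of the class had 17 T cell marker UMIs in WT and 14 in DKO-severe, and none of any other list. Without cells carrying 2 or more such markers, the class held 0.588% (8 of 1360) and 4.73% (98 of 2072) of Cd4 Foxp3-negative cells and 0.573% and 1.45% of Cd8 cells, so the difference in the Cd4 gate was about as large without them. For the class as a whole the shares without them were 0.637% (35 of 5492) and 4.21% (209 of 4965).

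Within the class most levels in the mice were close. Its S-phase list had 1788 CPM in WT against 1772 CPM in DKO-severe cells (-0.01, -0.20 to 0.18), a measure that did not choose the cells. *Hmgb2* had 4224 and 4268 CPM (0.02), *Rrm2*, the small subunit of ribonucleotide reductase, 243 and 231 CPM (-0.07), and *Stmn1* 1518 and 1095 CPM (-0.47, -0.68 to -0.26). In cells with fewer than 6 mitotic genes the S-phase list had 245 CPM in WT against 364 CPM in DKO-severe (0.57, 0.52 to 0.62). There *Mcm6* had 34.6 and 77.7 CPM (1.16, 1.04 to 1.29), *Pcna* 66.3 and 86.8 CPM (0.39) and *Hmgb2* 219 and 392 CPM (0.84). The difference in replication genes was thus found outside the class as well.

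In cells outside the class *Kif23* was lower in DKO-severe, and *Stmn1* varied by gate. *Kif23* had 15.0 CPM in WT against 8.70 CPM in DKO-severe cells with fewer than 6 mitotic genes (-0.78, -1.05 to -0.52), while *Cks2* had 14.6 and 40.4 CPM (1.47). Both genes are among those counted for the threshold. With the gene itself left out of the count, *Kif23* had 15.0 and 9.02 CPM and *Cks2* 14.7 and 41.7 CPM. In Cd4 Foxp3-negative cells outside the class *Stmn1*, which destabilises microtubules, had 52.3 and 49.5 CPM (-0.08, -0.30 to 0.14), in Cd8 cells 22.8 and 55.2 CPM (1.28, 1.04 to 1.52), and over all retained cells 34.9 and 52.7 CPM (0.59, 0.46 to 0.73). Over all Cd4 Foxp3-negative cells *Stmn1* had 78.3 and 171 CPM (1.13), while the share of cells with a *Stmn1* UMI was 15.8% in WT and 12.4% in DKO-severe. *Hmgb2*, a chromatin protein, had 327 and 819 CPM (1.33) there, with a UMI in 52.9% and 67.8% of cells.

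How far each gene was held by cells of the class was read from the thinned counts of DKO-severe cells, with the gene itself left out when mitotic genes were counted. Over the mitotic list the median was 72.7% of a gene's UMIs, from 37.3% for *Cks2* to 85.4% for *Ccna2*. Over the S-phase list it was 25.0%, from 6.96% for *Ung* to 67.2% for *Rrm2*. *Tk1* (54.1%) stood with *Rrm2*, and *Mcm6* (10.5%), *Mcm4* (12.7%) and *Pcna* (15.8%) stood near *Ung*. The replication genes therefore ranged from genes found mostly in cells with many mitotic genes to genes found mostly outside them. In WT the medians were 38.4% and 4.37%.

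**Figure D4:**
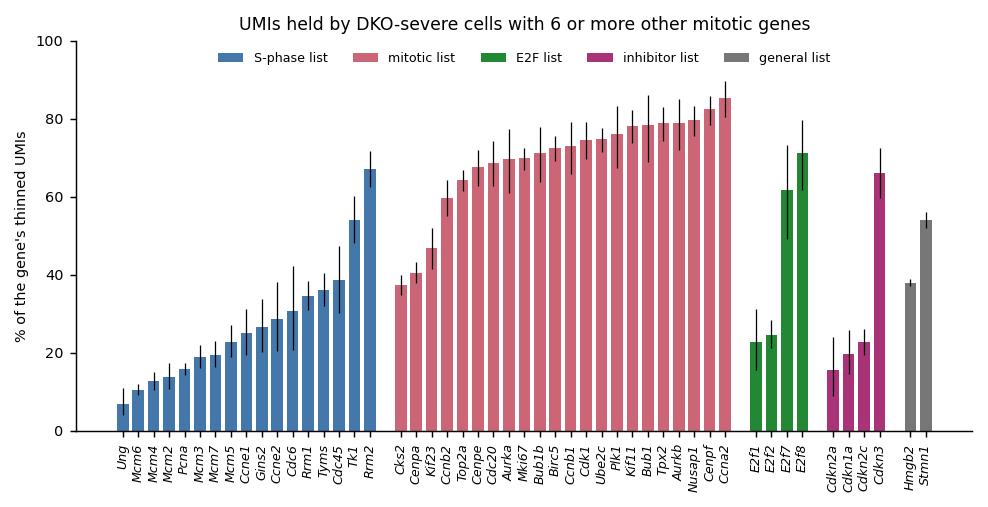
Percent of each gene's thinned UMIs (y axis) held by DKO-severe cells with 6 or more other mitotic genes, for the 49 members ordered within their lists (colours), with exact 95% binomial intervals that cover counting error only. Most mitotic genes lie above 60%, S-phase genes range from 6.96% to 67.2%, and of the inhibitors *Cdkn3* lies with the mitotic genes at 66.2%.

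The 4 E2F genes split by type. *E2f1* and *E2f2* are activators, while *E2f7* and *E2f8* are repressors that act after S phase has begun. In Cd4 Foxp3-negative cells *E2f2* held 65.1% of the list's UMIs, with 13.9 CPM in WT against 35.2 CPM in DKO-severe cells (1.34, 1.08 to 1.62). *E2f1* had 2.67 and 7.61 CPM (1.51, 0.91 to 2.17). *E2f7* had 1.03 and 4.56 CPM (2.15, 1.21 to 3.25) and *E2f8* 1.44 and 7.61 CPM (2.40, 1.62 to 3.30). In DKO-severe, cells with 6 or more other mitotic genes held 61.8% of *E2f7* and 71.3% of *E2f8* UMIs but 22.8% of *E2f1* and 24.7% of *E2f2* UMIs. Outside the class *E2f2* had 9.18 and 20.9 CPM over all retained cells (1.19, 0.94 to 1.43). In Cd8 cells *E2f1* had 2.32 and 7.77 CPM, and its ratio of 1.74 (1.26 to 2.25) was the widest of the list, while *E2f2* had 9.38 and 14.1 CPM (0.59), *E2f7* 1.09 and 2.43 CPM (1.16) and *E2f8* 2.18 and 2.92 CPM (0.42, -0.19 to 1.04).

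The inhibitors were higher in DKO-severe Cd4 Foxp3-negative cells as well, with log2 ratios from 2.02 to 3.60. *Cdkn1a* (chr17:29090976-29100727 in GENCODE vM21) encodes p21, which blocks cyclin-CDK2 and is a target of p53. It had 1.23 CPM in WT (12 UMIs) and 15.0 CPM in DKO-severe cells (348 UMIs), a log2 ratio of 3.60 (2.78 to 4.57) that was the widest of the 49 members. *Cdkn2a* (chr4:89274471-89294653) encodes the INK4 inhibitor of CDK4 and CDK6 and, from another first exon, ARF, and counts from the 3' end cannot tell these apart. It had 0.719 CPM (7 UMIs) and 6.58 CPM (153 UMIs), a ratio of 3.19 (2.12 to 4.53). *Cdkn2c* (chr4:109660876-109667189), a further INK4 gene, had 10.9 and 44.2 CPM (2.02, 1.73 to 2.32). *Cdkn3* (chr14:46760541-46771669), a phosphatase that acts on cyclin-dependent kinases, had 3.49 and 14.2 CPM (2.02, 1.51 to 2.58). With 5 CPM added to both levels in place of the floor of 3 UMIs, the ratios were 1.68, 1.02, 1.63 and 1.18.

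In Cd8 cells the inhibitors differed less. *Cdkn1a* had 0.379 and 0.911 CPM (8 and 15 UMIs, 1.27, -0.06 to 2.71), *Cdkn2a* 0.568 and 2.00 CPM (1.82, 0.83 to 2.91), *Cdkn2c* 7.91 and 10.2 CPM (0.37, 0.05 to 0.68) and *Cdkn3* 3.22 and 5.04 CPM (0.65, 0.17 to 1.13). The DKO-severe *Cdkn1a* level was thus 15.0 CPM in Cd4 Foxp3-negative and 0.911 CPM in Cd8 cells of 1 mouse. In Foxp3-positive cells *Cdkn1a* had no UMI in WT and 162 in DKO-severe (32.9 CPM). With WT counted as 3 UMIs its log2 ratio was 2.30, a value set by that floor. In the B gate *Cdkn2a* had 13.0 CPM in WT against 6.59 CPM in DKO-severe cells (-0.97, -2.04 to 0.22), an interval that includes 0.

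At equal depth a *Cdkn1a* UMI was present in 0.163% of WT (0.0198 to 0.589) and in 3.41% of DKO-severe (2.62 to 4.35) Cd4 Foxp3-negative cells, and in 0.0599% and 0.262% (0.00664 to 1.45) of resting reference cells. For *Cdkn2c* the shares were 3.68% and 11.9%, against 2.64% and 3.41% of resting cells, and for *Cdkn2a* 0.163% and 1.81%, against 0.0599% and 0.787% (0.163 to 2.28). In DKO-severe, *Cdkn1a* and *Cdkn2c* were thus found in a larger share of Cd4 Foxp3-negative than of resting cells beyond the counting intervals. The *Cdkn2a* share lay within the interval of resting cells. Before thinning, 399 of the 632 DKO-severe resting cells were Cd8 cells. In all DKO-severe Cd8 cells the shares were 0.451% (0.181 to 0.926) for *Cdkn1a* and 4.19% (3.24 to 5.30) for *Cdkn2c*. Lineage and resting state thus cannot be told apart in this comparison. Before thinning, DKO-severe cells without *Cd44* had 7.45 CPM of *Cdkn1a* in the Cd4 Foxp3-negative gate and 0.627 CPM in the Cd8 gate. For *Cdkn2c* these levels were 39.9 and 8.90 CPM. Over all retained cells *Cdkn1a*, *Cdkn2a* and *Cdkn2c* were found in cells without mitotic genes too. *Cdkn1a* was present in 0.149% of WT and in 1.83% of DKO-severe cells without any mitotic gene, and in 2.56% (1 of 39) and 8.28% (26 of 314) of the class with 6 or more. *Cdkn2c* was found in 3.06% and 7.27% of cells without a mitotic gene and in 23.1% and 30.3% of the class. *Cdkn3* behaved otherwise: 0.473% of WT and 0.489% of DKO-severe cells without a mitotic gene had a UMI, against 25.6% and 32.5% of the class. *Cdkn2a* was found in 0.917% of DKO-severe cells without a mitotic gene and 3.82% of the class, and in 0 of 39 WT cells of the class, which allows a share of up to 7.69% by the limit of 3 cells and 9.03% by the exact interval. DKO-severe cells with 6 or more mitotic genes held 19.8% of *Cdkn1a*, 15.5% of *Cdkn2a*, 22.7% of *Cdkn2c* and 66.2% of *Cdkn3* UMIs. Of the inhibitors only *Cdkn3* had CHR and CCAAT letters before its start, as had 11.2% of all genes with a window. Any link between these letters and its pattern was not tested.

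**Figure D5:**
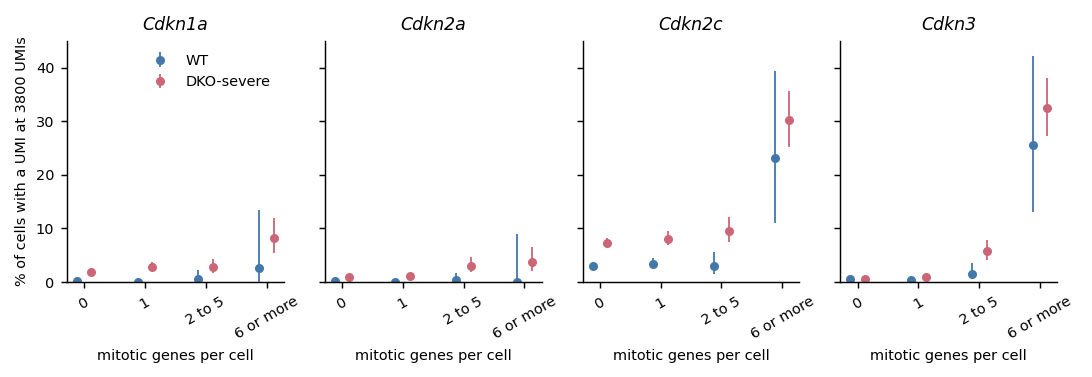
Percent of cells with a UMI at 3800 UMIs (y axis) for the 4 inhibitors, by the number of mitotic genes found in the cell (x axis), in WT (blue) and DKO-severe (red); bars are exact 95% binomial intervals. *Cdkn3* lies near 0 in cells without mitotic genes in both mice and at 25.6% and 32.5% in cells with 6 or more, while *Cdkn1a* and *Cdkn2c* are higher in DKO-severe cells in the lowest class as well.

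Within Cd4 Foxp3-negative cells, subsets were formed by single transcripts, and differences between them depended on the depth at which the transcript was read. In DKO-severe, on the counts before thinning, the class with 6 or more mitotic genes held 7.15% of cells with *Cd44*, an adhesion receptor of activated cells (92 of 1287), and 2.05% of cells without (21 of 1025). With *Pdcd1*, the gene of PD-1, it held 6.97% (74 of 1061) against 3.12% without (39 of 1251). With *Il21*, a cytokine of T follicular helper cells, it held 4.67% (35 of 749, 3.28 to 6.44), and without 4.99% (78 of 1563, 3.96 to 6.19). Cells with *Il21* thus had no larger share than cells without it. For *Cntn5* the shares were 4.36% (34 of 780) and 5.16% (79 of 1532). In WT, 4 of 85 cells with *Pdcd1* (4.71%, 1.30 to 11.6) and 6 of 281 with *Cd44* (2.14%) were in the class. The DKO-severe *Cdkn1a* level was 20.4 CPM in cells with *Pdcd1* and 8.83 CPM in cells without it, and 20.2 CPM with *Il21* and 12.1 CPM without. These levels, too, rest on transcripts read before thinning. Cells with a UMI of the subset's transcript had more UMIs in all (a median of 9280 against 7489 for *Pdcd1*). With the subsets formed on thinned counts, the DKO-severe shares of the class were 4.06% (25 of 616) with and 3.57% (43 of 1203) without *Cd44*. They were 3.98% (21 of 528) and 3.64% (47 of 1291) for *Pdcd1*, and 2.53% (10 of 395) and 4.07% (58 of 1424) for *Il21*. At equal depth the shares with and without *Cd44* or *Pdcd1* were thus close. However, a cell that lost its *Cd44* UMI on thinning was counted as without it. Cells of the class went from 92 with and 21 without *Cd44* to 25 and 43. Close shares on thinned counts therefore do not show that the class is unrelated to these transcripts.

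In Cd8 cells the split by *Cd44* depended on depth in the same way. Here too, a cell that lost its *Cd44* UMI on thinning was counted as without it. Overlap of intervals on thinned counts therefore does not show that the shares were equal. With subsets formed before thinning, the class held 2.98% of WT (15 of 503) and 2.71% of DKO-severe cells with *Cd44* (20 of 738), and 0.0818% (2 of 2446) and 1.03% (9 of 878) of cells without. On thinned counts it held 1.11% (3 of 271, 0.229 to 3.20) and 2.28% (9 of 394, 1.05 to 4.29) of cells with *Cd44*, and 0.452% (12 of 2657, 0.234 to 0.788) and 2.16% (25 of 1159, 1.40 to 3.17) of cells without, so in both mice the intervals overlapped. Cells with *Gzma* or *Gzmb*, the granzymes of cytotoxic cells, had shares of 2.60% (4 of 154) and 3.34% (15 of 449), and on thinned counts of 0.990% (1 of 101) and 2.87% (10 of 348). Their mitotic list had 558 CPM in WT against 526 CPM in DKO-severe cells, and their S-phase list 374 and 560 CPM. Cells with these transcripts were 162 of 3064 Cd8 cells in WT and 528 of 1724 in DKO-severe.

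Other cell cycle genes, taken from lists with no member in them, followed the members of their phase. In Cd4 Foxp3-negative cells all 20 further replication genes were higher in DKO-severe, 17 with an interval above 0 (34.4% of all genes with a ratio had one) and a median log2 ratio of 1.09, among them *Clspn* of the replication checkpoint (4.52 and 20.8 CPM, 2.20). Of 28 further mitosis genes, 27 had an interval above 0, with a median of 1.89. *Foxm1*, a factor that switches on mitosis genes, had 0.719 and 5.20 CPM (2.86). The exception was *Smc4* of condensin, with 490 CPM in WT against 239 CPM in DKO-severe cells (-1.04, -1.09 to -0.98), which alone outweighed much of the list: its sum had 725 and 874 CPM (0.27). In Cd8 cells *Smc4* had 403 and 250 CPM (-0.69).

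Genes of entry into the cycle and of its restraint differed in both directions. Of all genes with a ratio in Cd4 Foxp3-negative cells 34.4% had an interval above 0 and 19.1% one below. Of 11 entry genes 7 had an interval above 0 and 2 below, and of the 7 at 10 CPM or more 1 (14.3%) had a log2 ratio of 1 or more, against 9.27% of all genes at that level. *Cdk6*, a partner of D cyclins, had 48.9 CPM in WT against 193 CPM in DKO-severe Cd4 Foxp3-negative cells (1.98), *Ccnd3* 596 and 1064 CPM (0.84), and *Myc* 30.8 and 17.7 CPM (-0.80, -1.02 to -0.58). Of 10 restraint genes 2 had an interval above 0 and 4 below. The highest ratio of these was that of *Cdkn2b*, an INK4 gene with a mean under 10 CPM, at 1.37. *Btg1*, which slows proliferation, had 775 and 416 CPM (-0.90), *Cdkn2d*, another INK4 gene, 99.5 and 73.5 CPM (-0.44), *Rb1* 110 and 88.6 CPM (-0.31), and *Cdkn1b*, the gene of p27, 131 and 130 CPM (-0.02, -0.12 to 0.07). The inhibitors therefore did not share 1 direction. *Cdkn1a*, *Cdkn2a*, *Cdkn2b*, *Cdkn2c* and *Cdkn3* were higher in DKO-severe cells, *Cdkn2d* was lower, and the interval of *Cdkn1b* included 0.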

How the data were processed

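Single-cell RNA sequencing counts of 1 WT and 1 DKO-severe mouse were used. The authors made the deposited UMI counts with Cell Ranger 7.1.0 (file header) and, per the labels, the mm10 genome, with no normalization; Seurat is named in the submitters' notes. Genotype was that of the matrix, named WT or DKO, and was checked against Hashtag 1 (WT) or Hashtag 2 (DKO), as the labels assign them. The matrices held 7189 and 7161 barcodes with 45294779 and 69692053 UMIs, and shared 0 barcodes.

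Barcodes with more counts of the other hashtag (3 WT), under 500 genes or over 10% mitochondrial UMIs were left out. Scrublet (scanpy 1.11.5) marked 0 WT and 1 DKO-severe barcodes by its own threshold, so the highest 6% of doublet scores per matrix were removed. For shares, cells were thinned to 3800 UMIs; this left out 10.6% of WT and 7.50% of DKO-severe cells. Log2 ratios counted sums under 3 UMIs as 3, and none was given where both sums were 3 or fewer. Intervals (scipy 1.17.1) are exact conditional binomial for ratios and Clopper-Pearson for shares. The ratio code was tested on simulated data.

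Named genes were, per role, the 2 with most UMIs in Cd4 Foxp3-negative cells and those with the highest and lowest log2 ratio there, plus all E2F, inhibitor and general genes; other genes named beside these, subsets' genes included, were chosen after their values were seen. The members and lists were chosen with earlier results of these data known. Promoter windows came from RefSeq (GRCm38.p6) and gene positions from GENCODE vM21, of the same assembly as mm10. Alternatives changed the doublet removal, gates, depth of thinning, thresholds, weighting, scaling and floor; those on other lineages, the top cell and 6 genes were added after the data were seen, as were the genes that define resting reference cells; 1 gene is not reported here.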

Additional observations from a re-analysis of the deposited data

Results flagged for a closer look

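Summed over all cells of a gate, *Kif23*, the kinesin of the last step of division, had opposite directions in 2 gates. Its log2 ratio was -0.36 (23.6 CPM in WT, 18.5 CPM in DKO-severe) in Cd8 cells against 1.01 in Cd4 Foxp3-negative cells. In cells with fewer than 6 mitotic genes the directions were not opposite. There the ratio was -0.51 (9.37 and 6.58 CPM, -1.08 to 0.07) in Cd4 Foxp3-negative cells. In Cd8 cells it was -0.56 (20.8 and 14.1 CPM, -0.94 to -0.20). With 1 mouse per genotype the difference between gates was not tested.

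Cells in none of the 5 gates, which entered no comparison between gates, held the class with 6 or more mitotic genes too. It made up 8.55% of these cells in DKO-severe (104 of 1217, 7.04 to 10.3) and 0.833% in WT (11 of 1320). Of the 104 cells, 64 had a *Cd3* UMI with neither *Cd4* nor *Cd8*, 18 had *Cd3* with both and 22 had no *Cd3* UMI. Before thinning, 48 had UMIs of 2 or more granulocyte markers and 42 of 2 or more monocyte or macrophage markers. Without cells carrying 2 or more markers of other lineages at equal depth, the shares were 5.78% (57 of 987) and 0.812% (10 of 1232). The part of these other markers in the result was not tested.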

How the results depend on the processing

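The 22 main values were recomputed under 210 alternatives. None of the log2 ratios among them changed sign, while percentages of 1 genotype have no direction to change. The order of the WT and DKO-severe mitotic shares of joint UMIs in Cd8 cells (44.1% and 44.0%) did depend on the alternative. These were 35.7% and 38.9% with equal weights and 47.8% and 46.0% without the top gene of each list. Of the alternatives planned, 124 moved a value by less than its counting interval and 64 by more; of those added after the data were seen, 3 and 19. For the values that moved, the cause was not tested unless fewer cells or a changed scale is the alternative itself. No paired analysis was possible because there was 1 mouse per genotype. A single mouse of each genotype, few WT cells in 3 of the gates and counts of 12 or fewer for WT *Cdkn1a* and *Cdkn2a* limit the values.

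For the S-phase list, removing the highest 12% of doublet scores gave log2 ratios of 1.00 in Cd4 Foxp3-negative, 0.45 in Cd8 and 0.80 in innate-like cells. Requiring 2 UMIs of the gate transcripts gave 0.92 in Cd4 Foxp3-negative, 1.05 in Foxp3-positive, 0.53 in innate-like and 1.33 in B cells. CPM without immunoglobulin, haemoglobin, mitochondrial and ribosomal protein genes gave 0.92 in Cd4 Foxp3-negative and 0.91 in B cells. Weighting each cell equally gave 0.82, 1.04, 0.75 and 0.61 in Cd4 Foxp3-negative, Foxp3-positive, innate-like and B cells. Without *Pcna*, the member with most UMIs, the Cd4 Foxp3-negative ratio was 1.20. Without cells carrying 2 or more markers of other lineages the ratios were 0.86, 0.53, 0.59 and 0.41 in Cd4 Foxp3-negative, Foxp3-positive, Cd8 and innate-like cells, and without the top cell of each genotype 1.49, 1.41 and 1.45 in Foxp3-positive, innate-like and B cells.

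For the mitotic list, no doublet removal gave 2.04 in Cd4 Foxp3-negative and 0.66 in Cd8 cells, and removal of 12% gave 1.79, 0.23, 2.35 and 2.46 in Cd4 Foxp3-negative, Cd8, innate-like and B cells. Gates of 2 UMIs gave 1.83 in Cd4 Foxp3-negative and 3.42 in Foxp3-positive cells. Leaving *Zbtb16*-positive and B-gate cells out gave 0.36 in Cd8 cells. The reduced CPM gave 1.79 in Cd4 Foxp3-negative and 1.92 in B cells. Equal weights gave 1.72, 1.98, 0.72, 2.29 and 1.60 in Cd4 Foxp3-negative, Foxp3-positive, Cd8, innate-like and B cells. Without *Cks2*, the member with most UMIs there, the Cd8 ratio was 0.41. Without cells carrying other markers the ratios were 1.72, 0.38, 0.65 and 1.76 in Cd4 Foxp3-negative, Foxp3-positive, Cd8 and innate-like cells. Without the top cell they were 2.13, 3.62, 3.26 and 2.36 in Cd4 Foxp3-negative, Foxp3-positive, innate-like and B cells.

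The shares of cells with 2 or more mitotic genes (Cd4 Foxp3-negative WT and DKO-severe, then Cd8 WT and DKO-severe) were 1.96%, 7.94%, 2.41% and 5.30% at 2000 UMIs, and 11.4%, 34.1%, 13.4% and 26.9% without thinning. They were 0.980%, 6.60%, 1.09% and 4.51% for 3 or more genes, and 0.245%, 3.74%, 0.512% and 2.19% for 6 or more. With gates of 2 UMIs the DKO-severe Cd4 Foxp3-negative share was 12%.

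The mitotic share of joint UMIs in the same order was 36.7%, 51.9%, 35.7% and 38.9% with equal weights, and 45.7%, 59.5%, 47.8% and 46.0% without the top gene of each list. In DKO-severe it was 58.5% and 45.7% (Cd4 Foxp3-negative and Cd8) without doublet removal, 56.6% and 41.2% with 12% removed, and 56.9% and 41.5% without *Zbtb16*-positive and B-gate cells. Gates of 2 UMIs gave 58.6% in DKO-severe Cd4 Foxp3-negative and 43.1% in WT Cd8 cells. With a pseudocount of 5 CPM the Cd4 Foxp3-negative ratios were 1.68 for *Cdkn1a*, 1.02 for *Cdkn2a*, 1.63 for *Cdkn2c* and 1.18 for *Cdkn3*.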
